A study of Mus musculus with 72 samples.

Results

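The 9 genes described here are the receptors of GLP-1 (Glp1r), GIP (Gipr) and glucagon (Gcgr) and 6 adenylyl cyclases (Adcy1, Adcy3, Adcy5, Adcy6, Adcy8 and Adcy9), measured in pancreatic islets of male mice. They were taken from the expression table by their gene symbol, 1 row each, out of 14604 genes, and all 9 were found. Mice of 3 inbred strains, BALB/cJ, C57BL/6J and DBA/2J, were given a fat-rich diet, labelled HFD, or chow, labelled RC. Islets were taken at day 5, 13 or 33, which gives 18 groups of strain, diet and day. The mice are labelled 8 weeks old, islets were kept overnight in culture after isolation, and each library came from the islets of 1 mouse. Values for 69 of 72 labelled samples were used, with 4 libraries in each group except 3 groups of 3 libraries, which are DBA/2J on HFD at day 13, DBA/2J on RC at day 33 and C57BL/6J on RC at day 33. The labels name no transgene, and the fat content of the diets is not given in the sources used here.

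GLP-1, GIP and glucagon receptors are class B receptors that couple to the stimulatory G protein Gs. Gs activates membrane adenylyl cyclases, which make cAMP from ATP, and in beta cells cAMP acts through protein kinase A and Epac proteins to increase insulin release when glucose is high. The cyclases differ in their regulation: ADCY1, ADCY3 and ADCY8 respond to calcium and calmodulin, ADCY5 and ADCY6 are inhibited by calcium and by the Gi proteins, and ADCY9 is largely insensitive to forskolin. The GIP and GLP-1 receptors are best known in beta cells, and the glucagon receptor is found in beta cells and, at much higher levels, in liver.

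The promoters of 3 of the genes are printed here because they belong to the results below. Adcy1 is the gene of the set called between the diets in the average of all strains. Glp1r and Gcgr are the receptors called higher in DBA/2J than in both other strains under both diets, in averages over the days. Each runs from 250 bases before to 50 bases after the RefSeq start site on GRCm38.p6, plus strand, at chr11:7063183-7063482 for Adcy1, chr17:30901617-30901916 for Glp1r and chr11:120530477-120530776 for Gcgr. Capitals mark the motifs found on either strand, the E-box CACGTG (bound by CLOCK and BMAL1 and by other basic helix-loop-helix factors) and the GC box GGGCGG.
Adcy1: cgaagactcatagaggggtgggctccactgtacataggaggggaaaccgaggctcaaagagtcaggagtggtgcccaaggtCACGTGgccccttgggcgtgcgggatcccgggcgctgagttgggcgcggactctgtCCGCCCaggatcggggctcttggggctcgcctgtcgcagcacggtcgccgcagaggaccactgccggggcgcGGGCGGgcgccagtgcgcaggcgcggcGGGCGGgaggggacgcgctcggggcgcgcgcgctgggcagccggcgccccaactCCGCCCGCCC
Glp1r: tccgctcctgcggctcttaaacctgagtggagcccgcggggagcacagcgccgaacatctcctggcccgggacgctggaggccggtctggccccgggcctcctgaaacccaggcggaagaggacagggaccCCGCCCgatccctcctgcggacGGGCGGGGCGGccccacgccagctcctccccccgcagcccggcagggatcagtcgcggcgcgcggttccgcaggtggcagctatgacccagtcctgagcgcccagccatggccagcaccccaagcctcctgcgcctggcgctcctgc
Gcgr: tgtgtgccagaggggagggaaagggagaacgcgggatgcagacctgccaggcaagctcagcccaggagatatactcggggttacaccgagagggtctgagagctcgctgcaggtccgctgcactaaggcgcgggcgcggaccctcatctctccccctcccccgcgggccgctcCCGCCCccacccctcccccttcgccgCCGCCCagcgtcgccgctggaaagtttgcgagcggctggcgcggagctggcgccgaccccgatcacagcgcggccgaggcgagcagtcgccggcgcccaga

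Promoter entries existed for 6 of the 9 genes, and Gipr, Adcy6 and Adcy8 are named only. The Adcy1 promoter held 1 E-box, 169 bases before the start site, and 5 GC boxes, of which the pair at positions 41 and 45 overlap. The Glp1r promoter held 3 GC boxes, of which the pair at -97 and -92 overlap, and the Gcgr promoter held 2. No match to the E-box, to the cAMP response element TGACGTCA or to the D-box TTANNTAA was found in the printed windows of Glp1r and Gcgr, and Adcy1 had no match to the last 2. Of 32851 promoters of this length, 7.15% held the E-box, 1.79% the cAMP response element, 6.00% the D-box and 35.7% the GC box. The shortened element TGACG, which lies inside TGACGTCA, occurred in 20.8% of promoters and, among the 6 genes with an entry, in Adcy9 alone.

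Glp1r had the highest level of the 9 genes in islets of each strain when set against length. In CPM, the read count scaled to library size, per kilobase of exon (CPM per kb, union of all annotated exons), Glp1r under RC averaged 38.3 ± 4.44 in C57BL/6J (SD, n = 11), 58.2 ± 8.84 in DBA/2J (n = 11) and 43.4 ± 4.06 in BALB/cJ (n = 12). Gipr came next, with 26.2 ± 4.01, 36.8 ± 8.58 and 21.7 ± 2.85 CPM per kb in the same strains. Gcgr had 10.7 ± 1.18 CPM per kb in C57BL/6J and 14.4 ± 2.30 in DBA/2J. Among the cyclases Adcy6 and Adcy9 were the most abundant, with 20.0 ± 1.22 and 13.9 ± 0.656 CPM per kb in C57BL/6J and 18.5 ± 1.89 and 11.2 ± 1.73 in DBA/2J. The other cyclases were lower: Adcy3 had strain means of 1.11 to 1.29 CPM per kb, Adcy5 0.546 to 0.644, Adcy1 0.277 to 0.517 and Adcy8 0.0549 to 0.166. Gcgr stood above Adcy9 in DBA/2J and BALB/cJ and below it in C57BL/6J. Neighbours in the order whose mean ± SD overlapped were Gcgr with Adcy9 and with Adcy6 in DBA/2J, Gcgr with Adcy9, Gipr with Adcy6 and Adcy5 with Adcy1 in BALB/cJ, and Adcy1 with Adcy8 in C57BL/6J. Within each strain the order of the 9 genes was the same with the longest transcript in place of the exon union.

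The low levels set the precision. Adcy8 had 4 to 48 reads per library (median 11), Adcy5 40 to 196, Adcy1 40 to 322 and Adcy3 85 to 309, while Glp1r had 3337 to 10903. Reads in the listed genes numbered 12292621 to 34591079 per library (median 22756199). The exons of Adcy3 overlap Cenpo on the other strand and those of Adcy6 overlap Gm29331. The libraries were stranded, but the strand setting of the counting is not given in the sources used here. Adcy1 lies on chr11:7063489-7178506, Gipr on chr7:19156061-19166127, Glp1r on chr17:30901817-30940791 and Gcgr on chr11:120530699-120538986 (GRCm38, GENCODE annotation). Levels below are log2 CPM, differences are log2 CPM differences with their standard error (SE), and a gene is called when its Benjamini-Hochberg adjusted p, over all 14604 genes of the comparison by limma, is under 0.05. Means of a strain and diet give the 3 days equal weight.

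All 10 beta-cell markers listed, among them Ins1, Ins2 and Slc2a2, were in the table, the lowest with a mean of 115 CPM over all libraries. Markers of cells outside the endocrine islet were present as well. Summed acinar markers ranged from 316 to 49099 CPM over the HFD libraries of the 3 strains and from 431 to 12497 CPM over the RC libraries, and the macrophage, endothelial and stellate markers were all detected. Each title carries a number whose meaning the labels do not give. In C57BL/6J at day 5 all HFD libraries had lower numbers than all RC libraries, so that diet and number cannot be told apart there. At days 13 and 33 the C57BL/6J numbers of the diets overlapped. In bulk islets, fewer cells of a type and less RNA per cell cannot be told apart.

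Adcy1 was higher under HFD when all strains and days were averaged, and no other of the 9 genes was called there. Its level averaged 2.72 log2 CPM in HFD libraries (SD 0.54, n = 35) and 2.12 log2 CPM in RC libraries (SD 0.57, n = 34), a difference of 0.60 ± 0.09 (SE, adjusted p = 2.89e-05, limma). In this comparison 5.47% of all genes were called. The other 8 were not called there, with differences of 0.14 for Gipr, 0.09 for Adcy6, 0.03 for Glp1r and Adcy9, 0.02 for Gcgr, -0.01 for Adcy8, -0.02 for Adcy5 and -0.11 for Adcy3. Adcy1 is a calcium-stimulated cyclase best studied in brain. In C57BL/6J the difference was 0.81 ± 0.16 (adjusted p = 0.000403), in a comparison with 14.6% of genes called, and in BALB/cJ it was 0.66 ± 0.15 (adjusted p = 0.0451), with 0.151% called. In DBA/2J it was 0.34 ± 0.16 and was not called (adjusted p = 0.999).

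In C57BL/6J islets at day 5, Adcy1 stood at 2.29, 2.27, 3.04 and 3.49 log2 CPM in the HFD mice, against 2.04, 1.80, 1.64 and 1.34 log2 CPM in the RC mice. All 4 HFD mice were above all 4 RC mice, and the difference of 1.07 ± 0.26 was called (adjusted p = 0.0212, limma; 1.87% of genes called). This day-5 call ended when HFD replicate 3, HFD replicate 4 or RC replicate 4 was left out, and over all single removals the value was 0.83 to 1.24 and the adjusted p 0.00937 to 0.153. At day 13 the level was 2.00, 2.23, 2.91 and 3.14 log2 CPM in HFD mice and 2.27, 2.53, 1.45 and 1.35 log2 CPM in RC mice. The 2 HFD libraries with the lower title numbers lay inside the RC range and the 2 with the higher numbers lay above it. The RC libraries ran the other way, with the higher values in the 2 lower numbers. At day 33 the 4 HFD mice had 2.11, 2.65, 2.18 and 2.10 log2 CPM, above all 3 RC mice with 1.81, 1.54 and 1.35 log2 CPM.

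In BALB/cJ islets the level of Adcy1 at day 5 was 3.53, 3.09, 3.21 and 3.03 log2 CPM under HFD, against 2.12, 2.52, 2.35 and 2.41 log2 CPM under RC, with no overlap. At day 13 it was 3.16, 3.18, 3.01 and 3.01 log2 CPM under HFD and 2.86, 3.01, 3.43 and 2.40 log2 CPM under RC, and all HFD values lay inside the RC range. At day 33 it was 3.68, 3.48, 3.78 and 3.18 log2 CPM under HFD and 2.83, 2.54, 3.23 and 1.80 log2 CPM under RC, with 1 HFD mouse below the highest RC mouse. The day-averaged BALB/cJ call ended in 24 of 69 removals of 1 library, with values of 0.57 to 0.73 and adjusted p of 0.0151 to 0.155. It also ended without day 5 (0.55, adjusted p = 0.490), without day 33 (0.52, adjusted p = 0.248) and with the alpha-cell marker level as a covariate (0.59, adjusted p = 0.0940). At the same value of 0.66 it ended without the variance trend (adjusted p = 0.0556) and with BALB/cJ fitted alone (0.0790).

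In DBA/2J islets the direction of the Adcy1 difference varied with the day. At day 5 the HFD mice had 2.20, 2.27, 2.32 and 2.60 log2 CPM and the RC mice 2.26, 2.31, 1.61 and 1.60 log2 CPM, and at day 33 the HFD mice had 2.84, 2.33, 1.96 and 2.56 log2 CPM and the RC mice 1.52, 1.23 and 2.27 log2 CPM. At day 13 the 3 HFD mice had 2.41, 2.42 and 1.92 log2 CPM and the 4 RC mice 2.21 to 2.54 log2 CPM. The HFD and RC ranges overlapped on each of the 3 days. The diet difference of Adcy1 did not pass the test of a difference between strains in any pair: C57BL/6J minus DBA/2J gave 0.47 ± 0.22 (adjusted p = 0.252), C57BL/6J minus BALB/cJ 0.15 ± 0.22 (adjusted p = 0.777) and BALB/cJ minus DBA/2J 0.31 ± 0.22 (adjusted p = 1.00, limma). DBA/2J is therefore not shown to differ from the other strains in this.

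**Figure D1:**
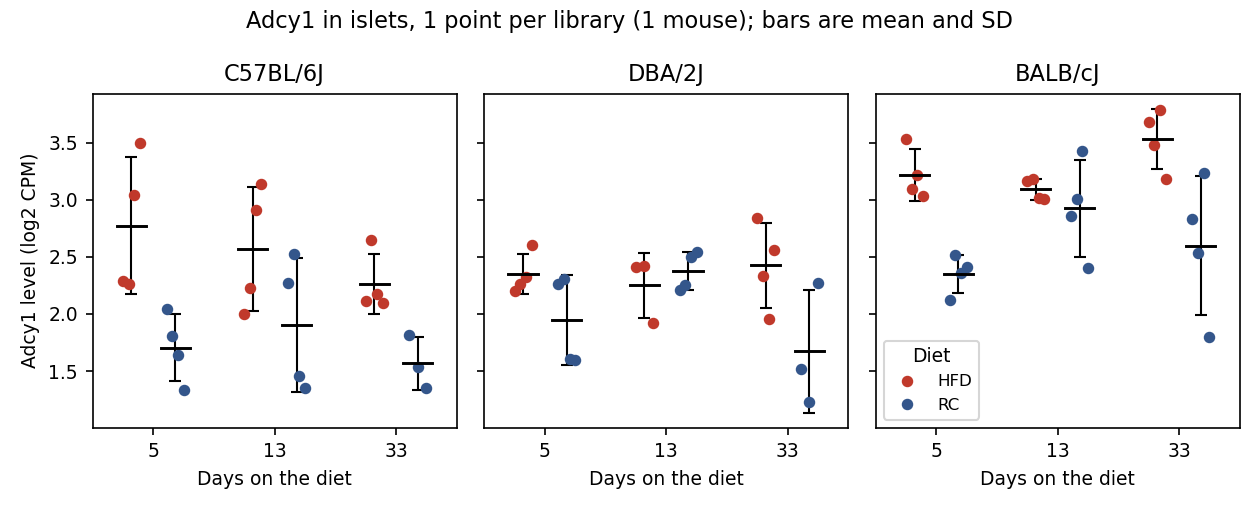
Adcy1 level (log2 CPM, vertical axis) in every library by day on the diet (horizontal axis) and strain (panels), with HFD in red left of RC in blue and the mean ± SD of each group as bars. At days 5 and 33 in C57BL/6J and at day 5 in BALB/cJ all HFD points lie above all RC points, while at day 13 the HFD and RC points overlap in each strain.

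Gipr was higher under HFD in C57BL/6J islets and was not called in the other strains. It averaged 7.02 log2 CPM in HFD libraries of C57BL/6J (SD 0.29, n = 12) and 6.49 log2 CPM in RC libraries (SD 0.23, n = 11), a difference of 0.52 ± 0.11 (adjusted p = 0.00118, limma). In DBA/2J the difference was -0.07 ± 0.11 and in BALB/cJ -0.03 ± 0.11, with adjusted p of 0.999 and 0.962. The direction in DBA/2J varied with the day. Its Gipr means under HFD and RC were 7.29 and 7.01 log2 CPM at day 5 and 6.58 and 7.09 at day 13. At day 33 they were 6.77 and 6.75. The DBA/2J RC libraries of day 13 stood at 6.58, 6.77, 7.47 and 7.55 log2 CPM. No member was called in DBA/2J, where limma called 0% of all genes, 599 genes and 1 of the 9 members (Adcy1) had an unadjusted p under 0.05, and voom on the recovered reads also called 0 genes. The diet difference of Gipr was larger in C57BL/6J than in DBA/2J by 0.59 ± 0.16 (adjusted p = 0.0462; 1.11% of genes called). This call ended in 31 of 69 removals of 1 library, with values of 0.53 to 0.65 and adjusted p of 0.0260 to 0.116, and without day 13 (0.29). It also ended with the title number (0.29, adjusted p = 0.616), the stellate marker level (0.52, 0.0778) or the macrophage and endothelial levels (0.48, 0.137) as covariates and without day 33 (0.67, 0.0518), and with quantile normalization (0.63, 0.0585) or without the variance trend (0.59, 0.0564). Against BALB/cJ the difference was 0.56 ± 0.16 and missed the threshold by limma (adjusted p = 0.0512; 1.27% called), while voom called it.

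In C57BL/6J at day 5, Gipr stood at 7.30, 6.76, 7.11 and 7.22 log2 CPM in HFD mice and at 6.56, 6.52, 6.79 and 6.78 log2 CPM in RC mice. At day 13 it was 7.34, 6.76, 6.94 and 7.14 log2 CPM under HFD and 6.58, 6.01, 6.38 and 6.46 log2 CPM under RC. At day 33 it was 6.73, 7.50, 6.64 and 6.76 log2 CPM under HFD and 6.21, 6.64 and 6.52 log2 CPM under RC. The groups did not overlap at day 13, touched at 6.64 at day 33, and overlapped by 1 HFD mouse at day 5. Taken day by day, the differences were 0.43 ± 0.19, 0.69 ± 0.19 and 0.45 ± 0.20 at days 5, 13 and 33, none of them called by limma (adjusted p 0.228, 0.0501 and 0.280), and voom called the one at day 13. In BALB/cJ at days 5 and 13, the HFD libraries with the lower title numbers of each day had 6.72, 6.70, 6.49 and 6.69 log2 CPM and those with the higher numbers 6.03, 5.86, 5.96 and 5.70 log2 CPM. The part of the title number in this split was not tested.

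**Figure D2:**
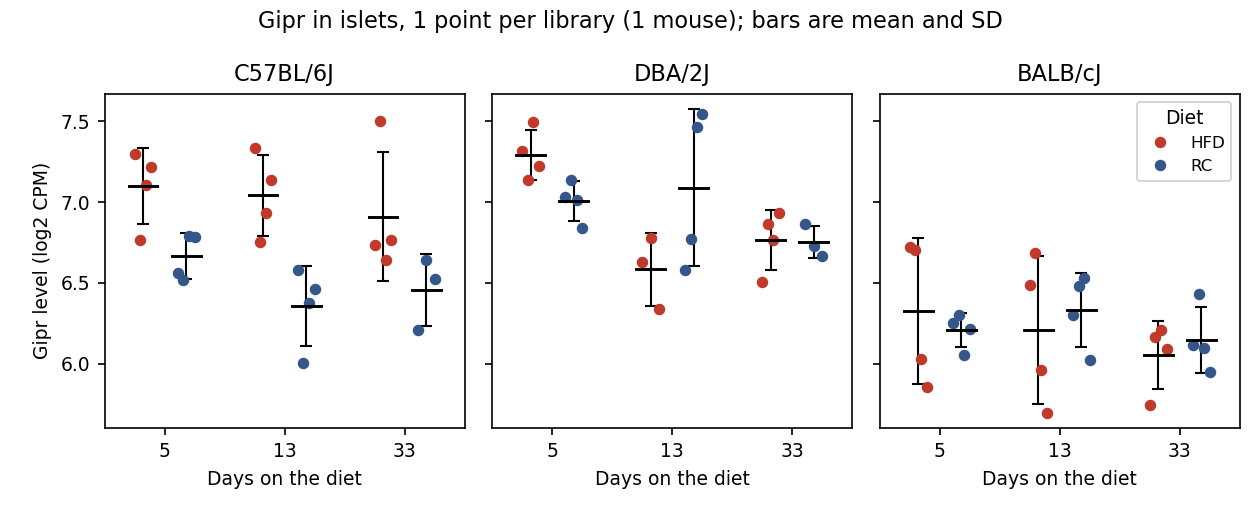
Gipr level (log2 CPM, vertical axis) in every library by day on the diet (horizontal axis) and strain (panels), with HFD in red left of RC in blue and the mean ± SD of each group as bars. In C57BL/6J the HFD means lie above the RC means on each day, with libraries between 6.64 and 7.50 against 6.01 to 6.79 log2 CPM and an overlap at day 5, and in DBA/2J and BALB/cJ the diets overlap.

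Adcy6, a cyclase inhibited by calcium, was the third gene called in C57BL/6J. Its level ran from 6.92 over a median of 7.31 to 7.46 log2 CPM in the 12 HFD libraries and from 6.95 over a median of 7.09 to 7.24 log2 CPM in the 11 RC libraries. The ranges overlapped and the difference of 0.20 ± 0.06 (adjusted p = 0.0115, limma) was called. Glp1r, Gcgr, Adcy3, Adcy5, Adcy8 and Adcy9 were not called between the diets in any strain. In C57BL/6J, Glp1r differed by -0.10 ± 0.07 (adjusted p = 0.370), Gcgr by 0.16 ± 0.08 (0.168) and Adcy3 by -0.19 ± 0.09 (0.133), and Adcy9, Adcy8 and Adcy5 by 0.07, -0.00 and -0.02. In DBA/2J these genes and Adcy6 differed by between -0.22 (Adcy8) and 0.05 (Glp1r), and in BALB/cJ by between -0.09 (Adcy3) and 0.19 (Adcy8). The 95% interval of the Glp1r difference ran from -0.25 to 0.05 in C57BL/6J and from -0.10 to 0.20 in DBA/2J. In BALB/cJ it ran from 0.01 to 0.29. Day by day, the Glp1r difference furthest from 0 was at day 13, with -0.33 ± 0.12 in C57BL/6J (adjusted p = 0.158) and 0.27 ± 0.12 in BALB/cJ (adjusted p = 0.303), neither called, although the 4 HFD and 4 RC libraries of BALB/cJ did not overlap. The median difference over the 9 genes was 0.07 in C57BL/6J, -0.05 in DBA/2J and 0.03 in BALB/cJ, beside medians over all genes of -0.01, 0.01 and 0.00188.

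**Figure D3:**
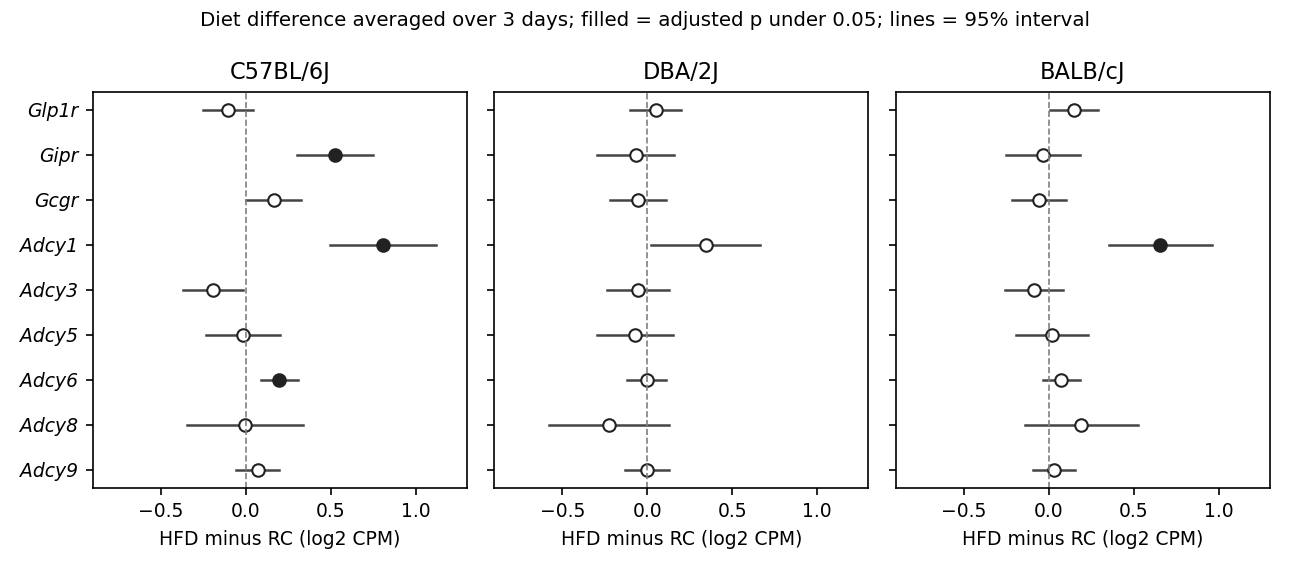
HFD minus RC difference (log2 CPM, horizontal axis) of each of the 9 genes (vertical axis) in each strain (panels), averaged over the 3 days, with 95% intervals and filled points for genes called at an adjusted p under 0.05. Adcy1, Gipr and Adcy6 are filled in C57BL/6J, no gene in DBA/2J and Adcy1 alone in BALB/cJ.

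The C57BL/6J calls moved with other measures of these libraries. With the title number as a linear covariate none of the 3 was called: Adcy1 stood at 0.63 (adjusted p = 0.181), Gipr at 0.23 (0.531) and Adcy6 at 0.14 (0.422). With C57BL/6J at days 13 and 33 only, where the numbers of the diets overlap, and the other strains kept whole, Adcy1 was 0.68 (0.0329) and Gipr 0.57 (0.0139), both called, and Adcy6 0.21 (0.0570). Without day 5 in all strains Adcy1 had the same value and an adjusted p of 0.0521, and without day 13 Adcy6 was 0.16 (0.136). Of the 10 stellate and fibroblast markers, 7 fell and 3 did not pass the test in C57BL/6J under HFD, and their summed level was 160.1 to 287.5 CPM in HFD libraries and 248.9 to 462.5 CPM in RC libraries. Of the 8 macrophage markers 2 fell (summed 83.2 to 125 CPM under HFD and 108 to 257 CPM under RC), and of the 10 endothelial markers 2 fell (525 to 701 and 564 to 696 CPM). Of all genes 14.6% were called in this comparison. Of 14 acinar markers 1 rose (median difference 0.72), as did 1 of 4 PP and epsilon markers (0.38). Of 10 beta-cell markers 1 fell (-0.13), and the alpha, delta, ductal and Schwann lists also had 1 lower each. No lymphocyte or adipocyte marker was called. With the stellate level as a covariate Adcy1 was 0.86 (adjusted p = 0.00197), Gipr 0.40 (0.0290) and Adcy6 0.15 (0.0976), and with the macrophage and endothelial levels Adcy1 was 0.78 (0.00551), Gipr 0.38 (0.0440) and Adcy6 0.15 (0.128). The averaged Adcy1 difference stayed called with each of these covariates, at 0.55 to 0.63.

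No member was called in the other 8 pairs of strain and day. The share of all genes called was 1.04% and 0% in C57BL/6J at days 13 and 33, 0.548%, 0% and 0.0205% in DBA/2J at days 5, 13 and 33, and 0.315%, 0.00685% and 0% in BALB/cJ at the same days. By limma, between 1 and 4 members had an unadjusted p under 0.05 in each of these 8 pairs, and voom called Gipr in C57BL/6J at day 13 and no other member in them. Where 0% were called, 2180, 599 and 669 genes had an unadjusted p under 0.05 in C57BL/6J at day 33, DBA/2J at day 13 and BALB/cJ at day 33, and voom called 11, 0 and 0 genes. The Adcy1 difference at day 5 and day 33 was 0.87 ± 0.26 and 0.93 ± 0.26 in BALB/cJ, and 0.40 ± 0.26 and 0.75 ± 0.28 in DBA/2J. No member's diet difference passed the test of a change between day 33 and day 5, with 0.0205% of genes called in C57BL/6J, 0.0137% in DBA/2J and 0% in BALB/cJ, where 706 genes had an unadjusted p under 0.05 and voom called 0. At that unadjusted level there were 0, 2 and 1 members, and voom called no member. BALB/cJ minus DBA/2J, the third pair of strains, had 0% of genes called by limma, with 472 genes and no member at an unadjusted p under 0.05, and no gene by voom.

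The other genes of the pathway were taken from lists of 118 distinct symbols, some of them older names of listed genes, of which 106 were in the table beside the 9. Under HFD 3 rose and 2 fell in the average of all strains, where 5.47% of all genes were called, and 6 rose and 6 fell in C57BL/6J, where 14.6% were, so neither share exceeded that of all genes. None was called by limma or voom in DBA/2J or BALB/cJ, where 4 and 7 had an unadjusted p under 0.05. Adra2a, the receptor through which adrenaline inhibits insulin release, fell in C57BL/6J by 0.51 ± 0.09 on the log2 scale (adjusted p = 0.000281). Per1, a clock gene that is also a CREB target, was higher by 0.79 ± 0.13 (adjusted p = 4.77e-05) and was the 1 of 10 CREB targets called. Of the 11 CREB proteins, coactivators and their kinases, 4 rose, among them the coactivator genes Crtc1 (0.32 ± 0.07) and Crtc2 (0.23 ± 0.06). Crhr1, a class B receptor of corticotropin-releasing hormone, fell by 0.92 ± 0.23 (adjusted p = 0.00546, limma), at a mean of 1.73 log2 CPM over all libraries. Rgs4, which shortens G protein signals, fell by 0.53 ± 0.10, and the Epac and Rap genes Rapgef4 and Rap1a fell by 0.15 ± 0.05 and 0.25 ± 0.06. Among 15 phosphodiesterases, which break down cyclic nucleotides, Pde4c rose (0.35 ± 0.12, mean level 1.6 log2 CPM) and Pde5a fell by 0.52 ± 0.18. None of the 10 G protein alpha subunits, 16 protein kinase A and anchor genes, 6 ligand and processing genes or 3 remaining cyclases was called between the diets in C57BL/6J.

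Between strains the 9 genes differed more often than between diets, as did the whole transcriptome. Under RC, 6 of the 9 were called in DBA/2J against C57BL/6J, where 54.5% of all genes were called, 7 of 9 in BALB/cJ against C57BL/6J, with 56.3% called, and 4 of 9 in DBA/2J against BALB/cJ, with 35.0% called. These shares of the members are to be read against those of all genes. The 3 comparisons share strains, so their values are given side by side.

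Under RC, all 3 receptors were highest in DBA/2J. Glp1r averaged 8.39 log2 CPM in DBA/2J (SD 0.24, n = 11) and 7.78 log2 CPM in C57BL/6J (SD 0.17, n = 11), a difference of 0.61 ± 0.08 (adjusted p = 5.67e-10, limma). It ran from 7.90 over a median of 8.47 to 8.65 log2 CPM in DBA/2J and from 7.48 over 7.82 to 8.06 log2 CPM in C57BL/6J, and the ranges overlapped between 7.90 and 8.06. Against BALB/cJ, with 7.97 log2 CPM (SD 0.14, n = 12), DBA/2J was higher by 0.42 ± 0.07 (adjusted p = 3.96e-06). BALB/cJ was above C57BL/6J by 0.19 ± 0.07 (adjusted p = 0.0226), a call that ended without C57BL/6J RC day 5 replicate 4 or day 33 replicate 4 (lowest value 0.16), without day 5 (0.19, adjusted p = 0.0679), without day 33 (0.18, 0.130) and with the stellate covariate (0.17, 0.0758) or the GC index described below (0.13, 0.165). With the macrophage and endothelial marker levels as covariates it turned to -0.16 (0.350), and DBA/2J minus C57BL/6J was 0.29 and no longer called (0.0647).

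Gipr under RC averaged 6.95 log2 CPM in DBA/2J (SD 0.31, n = 11), 6.23 in BALB/cJ (SD 0.19, n = 12) and 6.49 in C57BL/6J (SD 0.23, n = 11). DBA/2J was higher than C57BL/6J by 0.46 ± 0.11 (adjusted p = 0.000640) and higher than BALB/cJ by 0.72 ± 0.11 (adjusted p = 2.91e-07), and BALB/cJ differed from C57BL/6J by -0.26 ± 0.11 (adjusted p = 0.0397, limma), a call that ended in 12 of 69 removals, without day 5 (-0.17, adjusted p = 0.359) or day 33 (-0.24, 0.155), and with quantile normalization (-0.22, 0.0928), the acinar (-0.15, 0.287), the stellate (-0.15, 0.297) or the macrophage and endothelial covariates (-0.06, 0.844). With the title number as a covariate DBA/2J minus C57BL/6J was 0.22 and not called (0.260). Gcgr averaged 5.22 log2 CPM in DBA/2J (SD 0.20), 4.96 in BALB/cJ (SD 0.17) and 4.79 in C57BL/6J (SD 0.16). Its level in DBA/2J was higher by 0.43 ± 0.08 than in C57BL/6J (adjusted p = 1.94e-05) and by 0.26 ± 0.08 than in BALB/cJ (0.0101), and BALB/cJ minus C57BL/6J was 0.17 ± 0.08, not called (0.0669). The DBA/2J minus BALB/cJ call of Gcgr ended with the title number (0.20, 0.172) or the stellate level (0.18, 0.0854) as a covariate and without day 13 (0.24, 0.0536) or day 33 (0.23, 0.0656). Gipr ran from 6.58 over a median of 6.86 to 7.55 log2 CPM in DBA/2J, from 5.95 over 6.23 to 6.53 in BALB/cJ and from 6.01 over 6.52 to 6.79 in C57BL/6J, so DBA/2J overlapped C57BL/6J and lay wholly above BALB/cJ. Gcgr ran from 5.01 over 5.19 to 5.76 log2 CPM in DBA/2J, from 4.62 over 4.98 to 5.22 in BALB/cJ and from 4.53 over 4.86 to 5.06 in C57BL/6J, and DBA/2J overlapped both.

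Adcy8, a calcium-stimulated cyclase, showed the widest strain difference of the 9 genes. Under RC it ran from -1.83 over a median of -0.91 to -0.16 log2 CPM in DBA/2J, from -1.91 over -1.21 to -0.72 log2 CPM in BALB/cJ, and from -0.12 over 0.54 to 0.94 log2 CPM in C57BL/6J. All 23 libraries of DBA/2J and BALB/cJ were below all 11 libraries of C57BL/6J. The difference was -1.34 ± 0.18 in DBA/2J minus C57BL/6J (adjusted p = 3.29e-09) and -1.59 ± 0.17 in BALB/cJ minus C57BL/6J (adjusted p = 9.45e-12, limma), and DBA/2J minus BALB/cJ was 0.25 ± 0.17, not called (0.278). Adcy8 rests on 4 to 48 reads a library.

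Adcy1 had another order, with the highest level in BALB/cJ. Under RC it averaged 2.62 log2 CPM in BALB/cJ (SD 0.47, n = 12) and 1.73 log2 CPM in C57BL/6J (SD 0.40, n = 11), a difference of 0.90 ± 0.16 (adjusted p = 1.94e-06). DBA/2J, with 2.00 log2 CPM (SD 0.45, n = 11), was below BALB/cJ by -0.63 ± 0.16 (adjusted p = 0.000915, limma) and differed from C57BL/6J by 0.27 ± 0.16, not called (0.143). Adcy9 was highest in C57BL/6J, with 5.86 log2 CPM in DBA/2J and 5.92 in BALB/cJ against 6.17 in C57BL/6J, differences of -0.31 ± 0.07 and -0.25 ± 0.06 (adjusted p = 5.55e-05 and 0.000576). Adcy3, a cyclase known from olfactory neurons and cilia, was higher by 0.23 ± 0.09 in DBA/2J and by 0.21 ± 0.09 in BALB/cJ than in C57BL/6J (adjusted p = 0.0283 and 0.0375). These Adcy3 calls ended in 3 and 12 of 69 removals, for DBA/2J without C57BL/6J RC day 5 replicate 3, C57BL/6J RC day 33 replicate 2 or DBA/2J RC day 13 replicate 2 (lowest value 0.21). They also ended without day 33 (0.12 and 0.09) and with quantile normalization (0.19 and 0.17), median-centred libraries (0.20 each), the title number (0.09 and 0.19), the GC index (0.15 each) or the macrophage and endothelial covariates (0.24 and 0.20). The BALB/cJ call further ended without day 13 (0.21) and with the stellate covariate (0.17). Adcy6 was lower in BALB/cJ than in C57BL/6J by -0.16 ± 0.06 (adjusted p = 0.0134), a call that ended with quantile normalization (-0.09, 0.173), the acinar (-0.13, 0.0672), stellate (-0.12, 0.0950) or macrophage and endothelial covariates (-0.13, 0.377) and without day 5 (-0.13, 0.124). Adcy6 was not called in DBA/2J minus C57BL/6J (-0.11 ± 0.06, adjusted p = 0.0898) or DBA/2J minus BALB/cJ (0.05 ± 0.06, 0.569). Adcy5 was not called in any pair under RC, with differences from -0.25 to 0.20.

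**Figure D4:**
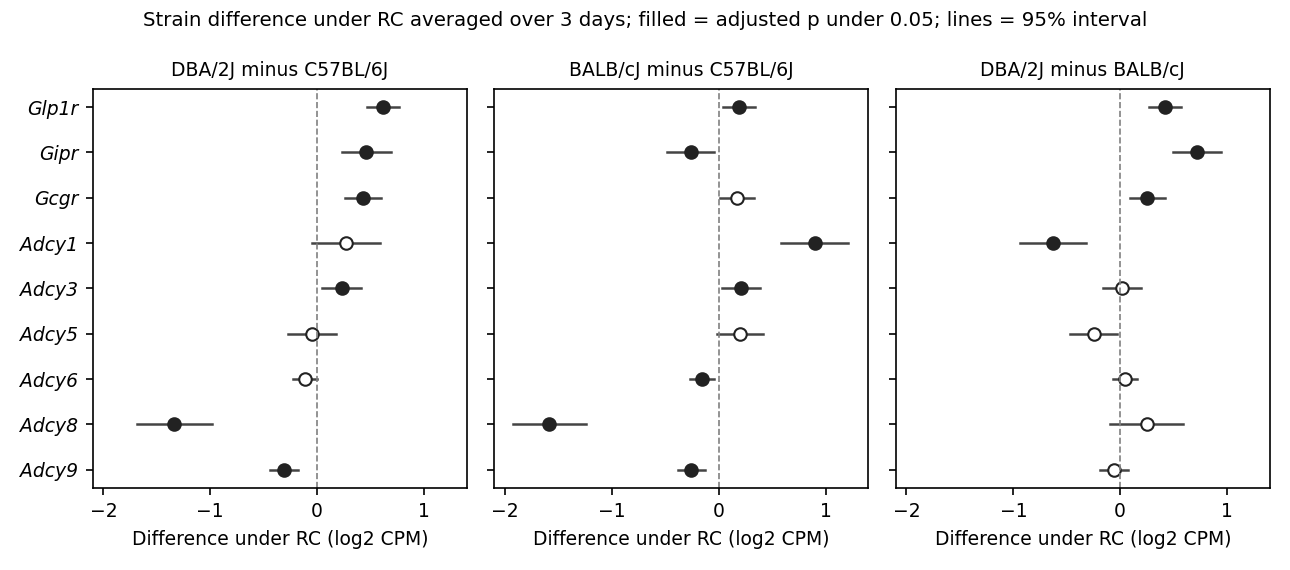
Strain differences under RC (log2 CPM, horizontal axis) of each of the 9 genes (vertical axis) for 3 pairs of strains (panels), averaged over the 3 days, with 95% intervals and filled points for genes called at an adjusted p under 0.05. The 3 receptors are filled on the positive side in both DBA/2J panels, and Adcy8 lies at -1.34 and -1.59 in the panels against C57BL/6J.

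The strain pairs were also compared in the HFD libraries, where 58.6% of all genes were called in DBA/2J minus C57BL/6J, 54.5% in BALB/cJ minus C57BL/6J and 35.1% in DBA/2J minus BALB/cJ. Glp1r kept its order, with 0.76 ± 0.07, 0.44 ± 0.07 and 0.32 ± 0.07 in these pairs, and so did Adcy8 against C57BL/6J (-1.56 ± 0.17 and -1.39 ± 0.17). Gipr did not: DBA/2J minus C57BL/6J was -0.14 ± 0.11 under HFD and not called (adjusted p = 0.297, limma), against 0.46 under RC, and BALB/cJ minus C57BL/6J was -0.82 ± 0.11 (called) against -0.26 under RC. The test of this change between diets is that of the diet difference between strains given above. Adcy6 was lower than in C57BL/6J by -0.31 ± 0.06 in DBA/2J and by -0.28 ± 0.05 in BALB/cJ under HFD, both called. So were Adcy9 (-0.38 ± 0.06 and -0.29 ± 0.06) and Adcy3 (0.37 ± 0.09 and 0.32 ± 0.09) in these pairs. Averaged over the days, Gcgr was higher in DBA/2J than in C57BL/6J by 0.21 ± 0.08 and than in BALB/cJ by 0.26 ± 0.08, both called. BALB/cJ minus C57BL/6J was -0.05 ± 0.08 for Gcgr. At days 5, 13 and 33 the Gcgr mean under HFD was 5.56, 5.00 and 4.93 log2 CPM in DBA/2J. It was 4.92, 4.90 and 5.05 in C57BL/6J and 4.88, 5.13 and 4.71 in BALB/cJ. DBA/2J was thus below BALB/cJ at day 13 and below C57BL/6J at day 33. Adcy1 was called in BALB/cJ minus C57BL/6J (0.75 ± 0.15) and DBA/2J minus BALB/cJ (-0.94 ± 0.16). Adcy5 was called in DBA/2J minus BALB/cJ under HFD (-0.34 ± 0.11, adjusted p = 0.00992), where it was not under RC, and whether the diets differ in this was tested as the diet difference between these strains, which was not called (0.09 ± 0.15 for BALB/cJ minus DBA/2J).

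Markers of other cells differed between the strains too. Under RC, 13 of 14 acinar markers were higher in DBA/2J than in C57BL/6J and 11 of 14 in BALB/cJ, with summed levels of 988 to 10307 CPM, 431 to 12497 CPM and, in C57BL/6J, 437 to 9266 CPM. Of 10 endothelial markers 8 were higher and 1 lower in DBA/2J than in C57BL/6J, and 7 were higher in BALB/cJ. Their summed levels in DBA/2J, BALB/cJ and C57BL/6J were 651 to 848, 743 to 947 and 564 to 696 CPM. Of 8 macrophage markers 5 were lower in DBA/2J, and 3 were lower and 1 higher in BALB/cJ. Their summed levels were 77.3 to 125, 96.1 to 296 and 108 to 257 CPM, with medians of 93.4, 125 and 118 CPM. These marker counts are to be read against the 54.5% (DBA/2J) and 56.3% (BALB/cJ) of all genes called against C57BL/6J. Of 10 stellate markers 2 were higher in DBA/2J, and 7 were higher and 1 lower in BALB/cJ (summed 314 to 445, 323 to 737 and 248.9 to 462.5 CPM). With the macrophage and endothelial levels as covariates, 3 members were called in DBA/2J minus C57BL/6J and 1 in BALB/cJ minus C57BL/6J. The share of all genes called with these covariates is not given here, so these counts stand without a background. Beside the changes of Glp1r, Gipr, Adcy3 and Adcy6 given above, Adcy1 was 0.61 (0.107) in BALB/cJ minus C57BL/6J. Adcy9 was -0.28 (0.0759) and -0.21 (0.191) against C57BL/6J, also not called. Adcy8 was -1.67 and -1.94 with these covariates and remained called, and in DBA/2J minus BALB/cJ Glp1r was 0.46 and Gipr 0.65, both called.

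The pathway genes outside the 9 differed between strains in both directions. In DBA/2J minus C57BL/6J 24 of 106 were higher and 38 lower, in BALB/cJ minus C57BL/6J 36 higher and 32 lower, and in DBA/2J minus BALB/cJ 17 higher and 29 lower. Of all genes 54.5%, 56.3% and 35.0% were called in these pairs, so that these counts are to be read against a large background. Vipr2, a receptor of VIP and PACAP, was lower in BALB/cJ than in C57BL/6J by -2.15 ± 0.17 and higher in DBA/2J than in BALB/cJ by 1.03 ± 0.17. Its level was low, with a mean of 0.26 log2 CPM over all libraries. Dpp4, the protease that inactivates GLP-1 and GIP, was lower than in C57BL/6J by -0.47 ± 0.06 in DBA/2J and -0.64 ± 0.06 in BALB/cJ. Adcy4, with a mean of 1.87 log2 CPM, differed from C57BL/6J by -0.60 ± 0.12 in DBA/2J and by 0.65 ± 0.11 in BALB/cJ. Of the accessory proteins of class B receptors, Ramp2 was higher in both strains (0.56 ± 0.08 and 1.03 ± 0.08) and Ramp1 lower in DBA/2J (-0.90 ± 0.10). Sik1, a CREB-induced kinase that restrains CREB coactivators, was higher in DBA/2J and BALB/cJ by 1.89 ± 0.23 and 1.97 ± 0.22. Rapgef4, which encodes Epac2, the Epac form of beta cells, was lower than in C57BL/6J by -0.31 ± 0.05 in DBA/2J and -0.53 ± 0.05 in BALB/cJ.

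Over time on the diet, members were called in DBA/2J under HFD alone. There 23.3% of all genes differed between day 33 and day 5, and Gcgr and Gipr were lower and Adcy9 higher at day 33. In the order day 5, day 13 and day 33, Gcgr had 5.48, 5.23, 5.84 and 5.70 log2 CPM, then 4.94, 4.98 and 5.10, then 4.82, 4.96, 4.91 and 5.02. All day-5 values lay above all later ones, and day 33 minus day 5 was -0.64 ± 0.14 (adjusted p = 0.00105, limma). Gipr had 7.32, 7.14, 7.50 and 7.22 log2 CPM at day 5, 6.63, 6.78 and 6.34 at day 13 and 6.51, 6.86, 6.77 and 6.93 at day 33, a difference of -0.53 ± 0.19 (adjusted p = 0.0353), again with all day-5 values above all later ones. Adcy9 had 5.92, 5.51, 5.38 and 5.51 log2 CPM at day 5, 6.08, 6.03 and 5.61 at day 13 and 5.90, 6.10, 6.16 and 6.20 at day 33, a difference of 0.51 ± 0.11 (adjusted p = 0.000867), with the day-33 and day-5 ranges overlapping. The Gipr call ended without HFD day 5 replicate 1, 3 or 4 or HFD day 33 replicate 1 or 3 (difference nearest 0, -0.44), and with the stellate covariate (-0.46, 0.0540) or the macrophage and endothelial covariates (-0.46, 0.0632). The title numbers of the day-33 and day-5 libraries did not overlap, so that day and number cannot be told apart, and with the number as a linear covariate Gcgr was -0.73 (0.00858), Gipr -0.85 (0.0168) and Adcy9 0.52 (0.0147). The other members were not called, with 0.28 ± 0.12 for Glp1r (0.0922), 0.29 ± 0.29 for Adcy8, 0.08 ± 0.26 for Adcy1, -0.05 for Adcy6, -0.07 for Adcy5 and -0.20 for Adcy3. The Gcgr and Adcy9 calls held in all 69 removals.

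**Figure D5:**
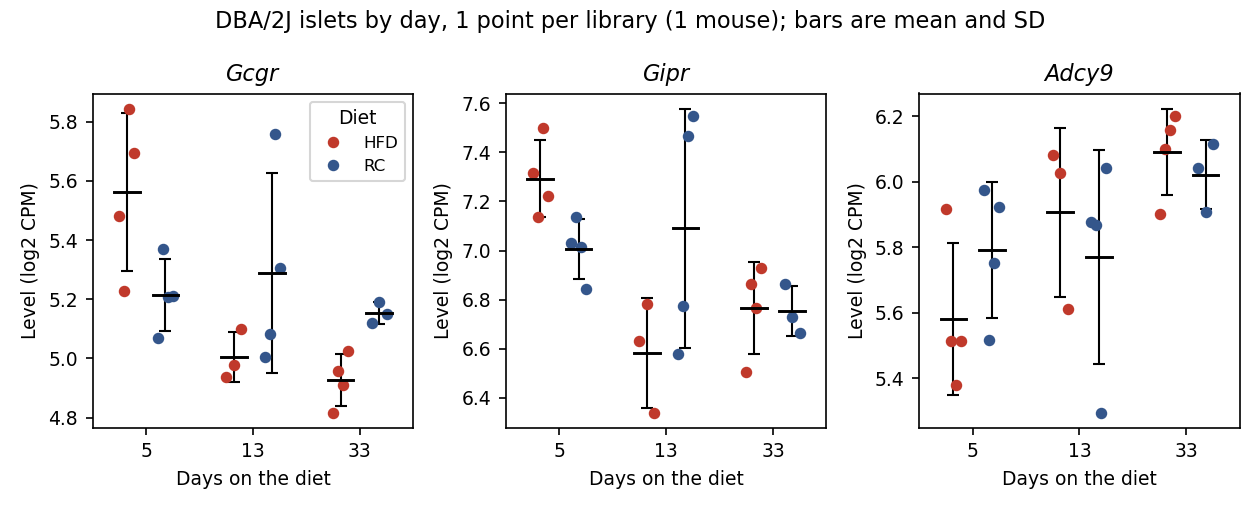
Levels of Gcgr, Gipr and Adcy9 (log2 CPM, vertical axes, each with its own range) in DBA/2J libraries by day on the diet (horizontal axis), with HFD in red left of RC in blue and the mean ± SD of each group as bars. Under HFD the Gcgr and Gipr points at day 5 lie above those at days 13 and 33, and the Adcy9 mean is lowest at day 5.

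The libraries of these groups also differed in an index of base composition, the mean log2 level of the 25% of genes richest in GC minus that of the 25% poorest in GC (3648 genes each). It averaged -0.41 ± 0.15 at day 33 and 0.04 ± 0.28 at day 5 in DBA/2J under HFD (SD, n = 4 each). With this index as a covariate, chosen after seeing the data, Gcgr was -0.38 (adjusted p = 0.0822) and Gipr -0.47 (0.199), neither called, and Adcy9 0.49 (0.0202). The index differed between strains too. Under RC it averaged -0.54 ± 0.18 in C57BL/6J (SD, n = 11), -0.20 ± 0.23 in DBA/2J (n = 11) and -0.28 ± 0.17 in BALB/cJ (n = 12). Across all 69 libraries, centred on the strain mean, it had a Pearson r of 0.60 with Gcgr, 0.41 with Adcy6, 0.35 with Adcy5 and 0.21 with Gipr. With Adcy9 it was -0.20, and with Glp1r, Adcy1, Adcy3 and Adcy8 it was 0.10 to 0.20. These values are descriptions, since all genes of a library share its depth and preparation. No member was called between day 33 and day 5 in the other 5 sets of libraries, where 0.00685% of genes were called in DBA/2J RC and in BALB/cJ RC, 0.123% in C57BL/6J RC, 0.233% in C57BL/6J HFD and 0.555% in BALB/cJ HFD. At an unadjusted p under 0.05 there was 1 member each in BALB/cJ HFD and BALB/cJ RC and none in the other 3, and voom called no member in the 5. Whether the change over time in DBA/2J differed between the diets was tested as the diet difference at day 33 minus that at day 5, which called no member.

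The 9 genes did not vary as 1 group within strains. Over 69 libraries centred on their strain mean, Gipr and Gcgr had a Pearson r of 0.68, Gipr and Adcy6 0.61, Adcy1 and Adcy6 0.47 and Glp1r and Adcy9 0.46, while Glp1r and Gipr had -0.28 and Gcgr and Adcy9 -0.33. These are descriptions, since all genes of a library share its depth, base composition and group. By the same measure, the genes most like Gipr were Iffo1, Pan2 and Pcsk4 (r of 0.89 each), those most like Gcgr were Dus3l (0.87), Sh3glb2 (0.86) and Ddx39b (0.83), and those most like Adcy9 were Soga1 (0.85), Hipk2 (0.83) and Hs6st3 (0.81). Adcy6 was most like Mllt6 (0.78), Fbrs (0.77) and Kmt2b (0.77), and Glp1r most like Ldlrad4, Sdk2 and Tshz1 (0.69 each). Adcy1 had Nt5dc2 (0.62), Neurl1b (0.61) and Anpep (0.60). The lower genes had weaker partners, with highest r of 0.63 for Adcy5 (Crip2), 0.48 for Adcy3 (Sec14l4) and 0.48 for Adcy8 (Sertad1).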

How the data were processed

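Islet RNA was sequenced from single mice, with 120 to 150 islets per mouse, per the labels' protocols. Stranded poly(A) libraries from 250 ng RNA (quality 8.2 to 9.3) were read as 125 bp single ends. GRCm38, edgeR, HTSeq 0.9.1 and STAR 2.5.3a appear in the submitters' processing notes. The authors deposited 1 table of log2 CPM values normalized between libraries, with a floor of -3.54 log2 CPM. Whole reads could be recovered for 100% of values under 1000 reads (tolerance 0.05 reads). The 69 columns were matched to samples by title, no column was left unmatched, and 3 samples were not analysed here. The days follow the sample labels (5, 13 and 33), and C56BL/6J was read as C57BL/6J.

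From these values, limma 3.58.1 (R 4.3.3) fitted 1 mean per group over 69 libraries with a variance trend, with two-sided contrasts and Benjamini-Hochberg adjustment over 14604 genes. The p-values thus rest on mouse-to-mouse spread. The 9 members, the pathway and marker lists and the tests were chosen with earlier results of these data known. All 9 members are named in the day-averaged diet, strain and DBA/2J HFD day comparisons. Pathway genes named were taken from the 2 called genes with the lowest p per list and comparison, of which not all are printed. Symbols come from the table; 14589 gene IDs matched the GENCODE annotation, and promoters are from RefSeq (GRCm38.p6). voom on the recovered reads, library weights, other scalings, covariates and left-out libraries were the alternatives.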

Additional observations from a re-analysis of the deposited data

Results flagged for a closer look

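In 5 of 135 groups of 4 libraries of a member, 1 library stood far from the other 3; chance gives about 1 in 20. Glp1r was 7.90 log2 CPM in DBA/2J RC day 13 replicate 3, and 8.47 to 8.56 in the other 3. Gcgr was 4.53 log2 CPM in C57BL/6J RC day 13 replicate 2, and 4.86 to 4.91 in the others. Adcy6 was 6.68 log2 CPM in BALB/cJ RC day 5 replicate 3, and 6.96 to 6.99 in the others. In C57BL/6J HFD day 33, replicate 2 was the highest library for both Gipr (7.50 log2 CPM, others 6.64 to 6.76) and Adcy1 (2.65 log2 CPM, others 2.10 to 2.18).

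The diet difference of Gipr was larger in C57BL/6J than in DBA/2J by 0.59 (log2 CPM), past the threshold in the test of the difference itself. That call ended in 31 of 69 removals of 1 library, and the value was 0.29 with the title number as a covariate and 0.29 without day 13.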

How the results depend on the processing

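Over 31 single-gene results, 654 of 662 values under the alternatives had the reported direction; 82 lost the call, 2 gained it and 2 called values reversed. These were Gipr in DBA/2J minus C57BL/6J, -0.14 in the HFD libraries, and Glp1r in BALB/cJ minus C57BL/6J, -0.16 with macrophage and endothelial covariates. Counts of called members stayed within 1.5 times of the reported value in 125 of 144 cases. With library weights 4 members were called for HFD minus RC over all strains (1 reported). With these weights 5 were called in C57BL/6J (3 reported) and 1 in DBA/2J (0 reported). The share of all genes called with the weights, or with the covariates, left-out days and scaling changes below, is not given here. These counts of members thus stand without a background. In C57BL/6J the count was 0 with the title number and 1 without day 5 throughout. In BALB/cJ (1 reported) it was 0 without the variance trend, with the alpha-cell covariate, without day 5, without day 33 and with the strain fitted alone. For DBA/2J minus C57BL/6J (6 reported) it was 3 with macrophage and endothelial covariates. For BALB/cJ minus C57BL/6J (7 reported) it was 1 with these, and 4 with quantile normalization, with the stellate covariate, without day 5 and without day 33. Leaving out 1 library gave 1 to 2 over all strains, 3 to 3 in C57BL/6J, 0 to 0 in DBA/2J, 0 to 1 in BALB/cJ, 5 to 7, 4 to 8 and 4 to 5 in the strain pairs in the order of the report. Apart from what the covariates and left-out samples themselves are, the cause of these changes was not tested.

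Other scalings shifted the median of all genes to between -0.0253 and 0.00719 on the log2 scale. Over 21 same-numbered pairs of libraries of the diets the correlation of deviations from the group means was -0.287 to 0.349 (median 0.0491). Over 111 pairs with other numbers it was -0.339 to 0.312 (median -0.012). These ranges overlap, and the same-numbered pairs are too few to decide whether the title numbers pair the libraries. A replicate block of strain and number (consensus correlation 0.0565) changed no count of members.

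The diets share no title number at day 5 in C57BL/6J. Adcy8, Adcy5, Adcy1 and Adcy3 rest on few reads. Single days hold 3 or 4 mice a group. Marker levels stand for cell composition only in part, and covariates that differ between strains take strain difference with them. The strain pairs under HFD, C57BL/6J without day 5 alone and the GC index were added after seeing the data.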
